A study of Mus musculus with 52 samples.

Results

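The mouse embryonic stem (ES) cell line #4 (B6) was set directly against HM-1, an ES line used for gene targeting, on 4 of the 52 two-colour cDNA arrays of a study of 7 ES lines. The members of this comparison are the arrays whose titles pair the lines by name, numbered 1 to 4. The series description says that donor nuclei of several sources went into the lines, and 13 pairs of lines were hybridised on 4 arrays each. Arrays 1 and 2 carried #4 (B6) cDNA in the dye Cy5 and HM-1 cDNA in Cy3, and arrays 3 and 4 carried #4 (B6) in Cy3 and HM-1 in Cy5. The labels name for each channel a line and a dye and give 20 microgram of total RNA per labelling. They give no genotype, passage or culture condition for either line and do not spell out "#4" or "B6". Nothing says that the arrays came from separate cultures, so p-values measure the spread between arrays, which may be technical.

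Mouse ES cells grow from the inner cell mass of the blastocyst and keep the ability to form every tissue of the embryo. A core of transcription factors around Pou5f1 (Oct4), Sox2 and Nanog holds this state, and a more variable outer layer of genes, among them Zfp42, Klf4, Esrrb and Dppa3, marks its naive form, which is kept by leukaemia inhibitory factor (LIF) acting through STAT3. ES lines are often grown on a layer of fibroblasts, whose collagens and other matrix proteins can then enter the RNA that is measured.

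The table holds 1 log2 ratio of the channels per probe and array, and no intensities, so no level of a gene in a line can be read and the ES identity of either line could not be checked against marker levels. Between 19574 and 20089 of 20794 probes were measured on each of the 4 arrays, after removal of 36 to 69 probes per array that shared a constant top value. Probes of 1 gene were averaged, which gave 17053 features, namely 9030 genes and the probes without a listed gene. The labels do not say which dye is the numerator of the ratio. Each ratio was turned by the dye labels to read #4 (B6) minus HM-1 under the reading Cy5 over Cy3. If the ratio is Cy3 over Cy5, every sign below turns at once. Values are therefore called positive or negative.

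The 4 arrays alone do not settle the direction of single arrays. The ratios of many features kept their sign when the dyes were swapped. Arrays of the same orientation correlated as deposited at a Spearman rho of 0.59 (arrays 1 and 2) and 0.60 (arrays 3 and 4), over features that are not independent replicates. Arrays of opposite orientation also correlated positively as deposited, between 0.44 and 0.54. After turning by the labels these last correlations were therefore negative, between -0.54 and -0.44. Of 15157 features measured on all 4 arrays, 1353 (8.93%) had 1 sign on all 4 after turning, 7521 (49.6%) had 1 sign on all 4 as deposited (3853 positive and 3668 negative), and 6283 (41.5%) had neither. Results are given for the turned values, called the direct difference, and beside them for the mean of the 4 ratios as deposited. A further value, the indirect difference, gives #4 (B6) minus HM-1 from the 48 arrays of the other 12 comparisons. These share the lines, and possibly their RNA, but are not among the 4 arrays. The direct p-values take their spread and dye term from a fit of all 52 arrays. An overlap of direct and indirect calls is therefore not one between separate arrays.

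In the direct difference 36 of 16410 features tested passed an adjusted p of 0.05 in limma (0.219%), 13 of them positive (0.0792%) and 23 negative (0.14%). The median over all features was -0.03, and the middle 90% lay between -0.78 and 0.59. Of the 36 features, 19 had a gene symbol and 17 were probes without one. Turned values had 1 sign on every array that measured the feature for 29 of the 36, 17 of them genes. These 17 genes, 8 positive and 9 negative, are described by name. The negative ones included genes that mark or regulate the pluripotent state (Zfp42, Sall1, Klf4, Dppa5a). Also negative were the Nodal inhibitor Lefty2, a histone H4 gene and ferritin light chain. The positive ones included the intermediate filament gene Vim and the calcium-binding genes Anxa1 and S100a11.

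**Figure D1:**
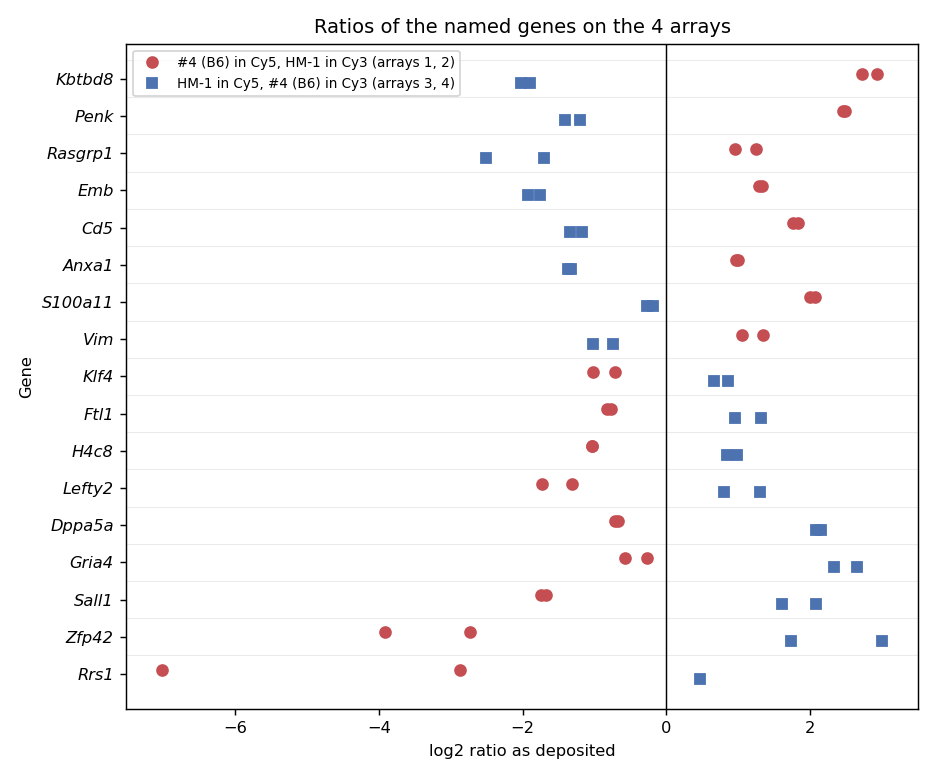
Log2 ratios as deposited (horizontal axis) of the 17 named genes on the 4 arrays, with the 2 arrays that carried #4 (B6) in Cy5 as circles and the 2 that carried HM-1 in Cy5 as squares. For S100a11, Gria4 and Dppa5a the colours stand unevenly about 0, as S100a11 does with 2.07 and 2.01 against -0.19 and -0.27.

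Counts depended on single arrays. Without array 1 the count of 36 was 19, without array 2 it was 14, without array 3 it was 49 and without array 4 it was 30. Among the 17 named genes, 7 (Penk, Cd5, S100a11, Zfp42, Dppa5a, H4c8 and Ftl1) passed whichever array was left out, 6 (Kbtbd8, Rasgrp1, Emb, Anxa1, Gria4 and Klf4) passed with none left out and lost the call with any 1 left out, and Vim, Sall1, Lefty2 and Rrs1 lost it in some of these settings. All directions stayed as they were. Without a dye term in the joint fit the call was lost for S100a11 (adjusted p = 0.698), Dppa5a (0.0911), Klf4 (0.0648), Gria4 (0.742), Kbtbd8 (0.184) and Rasgrp1 (0.0717), with their values as they were. Fitted on the 4 arrays alone, limma called 0 features, with 359 at an unadjusted p under 0.05.

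Read as deposited, without turning, the same 4 arrays gave a longer list that held 14 of the 36 features. Most of that list did not pass once the dye term of the other arrays was subtracted, as given below. The mean ratio as deposited passed for 913 of 16410 features (5.56%), 413 positive (2.52%) and 500 negative (3.05%). Its largest named values were positive for Ccl20 (3.17 ± 0.76, SE), a chemokine, Mmp12 (2.94 ± 0.83), a macrophage elastase, Wnt10b (2.88 ± 0.77), a WNT ligand, Slc19a1 (2.72 ± 0.65), a folate carrier, and Kbtbd4 (2.58 ± 0.70). They were negative for Gpank1 (-5.47 ± 1.53), Ssr1 (-5.31 ± 1.49), a subunit of the translocon-associated complex, Foxred1 (-4.84 ± 0.81), an assembly factor of respiratory complex I, Nop10 (-4.67 ± 0.90), a part of box H/ACA particles, and Elane (-4.47 ± 0.77), neutrophil elastase. Single arrays of these genes lay far apart, with Mmp12 at 6.40 and 2.12 where #4 (B6) was in Cy5 and at 1.77 and 1.46 where HM-1 was. None of these genes passed in the direct or the indirect difference. Ccl20, Gpank1, Ssr1, Foxred1, Nop10 and Elane were measured on 3 arrays only. Their value gives each dye orientation equal weight, so 1 array stands for a whole orientation and the value is not a plain mean. Elane read -8.43 on array 2 and -1.18 and 0.15 on arrays 3 and 4, and Foxred1 also read -8.43 on array 2. Nop10 read -7.204 on array 2, and Gpank1 read -7.652 on array 1. The lowest value of any probe was -9.01 on array 2 and -9.97 on array 1. The readings of Elane, Foxred1, Nop10 and Gpank1 on those arrays therefore lay toward the low end. Constant top values were removed, but low values were kept. Whether these readings are near a floor was not tested.

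**Figure D2:**
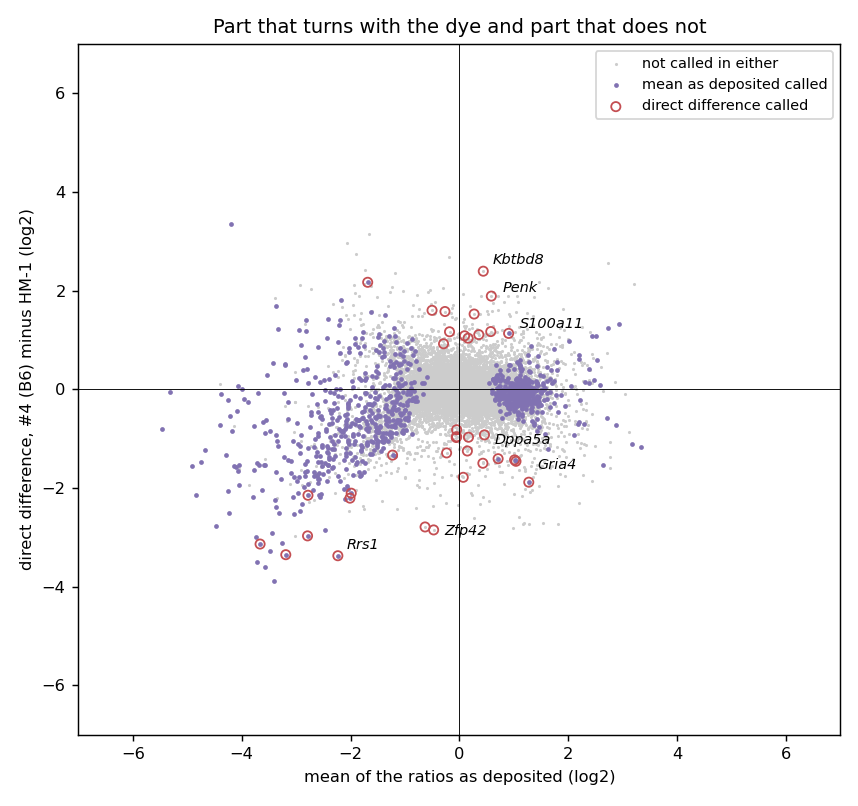
Each feature by the mean of its ratios as deposited (horizontal axis, log2) and its direct difference, #4 (B6) minus HM-1 (vertical axis, log2), with the 36 features called in the direct difference ringed and the 913 called in the mean as deposited as purple points. The purple points spread along the horizontal axis to both sides of 0, and Zfp42, Penk and Kbtbd8 lie near its middle.

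The arrays of the other lines give the same difference without these 4 arrays. In the indirect difference 118 of 16379 features passed (0.72%), 58 positive (0.354%) and 60 negative (0.366%), with a median of -0.03 over all features. Of the 36 features of the direct difference, 20 passed here too with the same sign, which is 55.6% of the direct and 16.9% of the indirect list, and 34 had the same sign. The 20 came to 16 of the 22 features that did not pass in the mean as deposited and to 4 of the 14 that did. The direct minus the indirect difference passed for 0 of 16379 features (0%) in limma, with 590 at an unadjusted p under 0.05 and the lowest adjusted p of 0.185 for Rrs1. With array weights 2 features passed, and with the 4 ratios left as deposited 53 did.

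**Figure D3:**
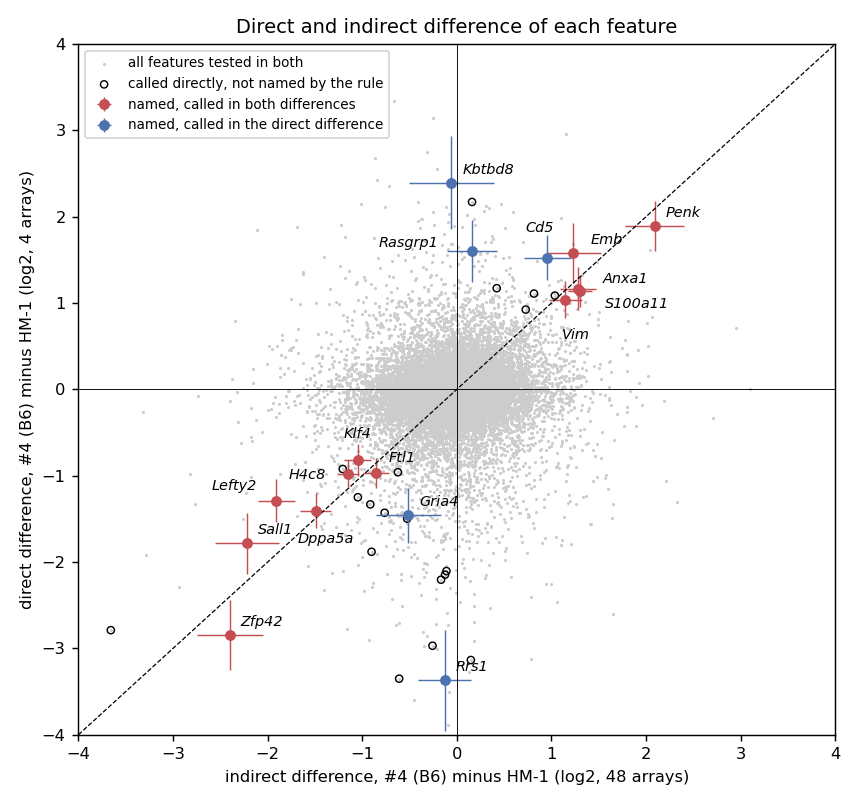
Direct difference (vertical axis, 4 arrays) against indirect difference (horizontal axis, 48 arrays), both #4 (B6) minus HM-1 in log2, for all features tested in both, with bars of 1 SE on the 17 named genes and a dashed line of equal values. The 12 genes called in both lie near the line, a place that their choice by both calls favours. Kbtbd8, Rasgrp1 and Rrs1 lie near 0 on the horizontal axis.

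Of the 17 named genes, 12 passed in both differences, 5 positive and 7 negative, and for these the values differed by 0.09 to 0.62 in size. For the other 5 (Kbtbd8, Rasgrp1, Cd5, Rrs1 and Gria4) they differed by 0.57 to 3.24. The genes were split by the indirect call, which favours smaller gaps in the 12, so the ranges do not test agreement. The promoters of 9 of the 12 genes were matched by symbol in the RefSeq promoter table (GRCm38.p6), 250 bases before to 50 after the listed start; Penk, Dppa5a and Lefty2 were not among them. The promoters of 2 negative and 2 positive genes are shown, so that genes of either sign stand side by side; they were chosen after their values were seen. Capitals mark matches, on either strand, to ATTTGCAT (the octamer bound by Oct factors), CATTGT (the core bound by Sox factors), TGANTCA (the AP-1 site), GGGCGG (the GC box) and TATAAA (the TATA box).
Zfp42, chr8:43306960-43307259, minus strand: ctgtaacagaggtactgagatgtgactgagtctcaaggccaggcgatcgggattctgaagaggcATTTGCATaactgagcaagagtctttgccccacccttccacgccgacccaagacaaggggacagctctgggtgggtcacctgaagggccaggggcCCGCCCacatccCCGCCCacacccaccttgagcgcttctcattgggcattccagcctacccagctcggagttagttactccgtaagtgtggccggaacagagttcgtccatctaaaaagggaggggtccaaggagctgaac
Klf4, chr4:55532426-55532725, minus strand: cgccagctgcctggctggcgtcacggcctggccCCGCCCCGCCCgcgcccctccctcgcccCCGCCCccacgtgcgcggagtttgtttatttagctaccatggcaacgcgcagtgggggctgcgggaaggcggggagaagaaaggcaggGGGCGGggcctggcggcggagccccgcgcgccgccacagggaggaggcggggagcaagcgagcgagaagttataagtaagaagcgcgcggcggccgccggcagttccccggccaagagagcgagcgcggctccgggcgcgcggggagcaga
S100a11, chr3:93520246-93520545, plus strand: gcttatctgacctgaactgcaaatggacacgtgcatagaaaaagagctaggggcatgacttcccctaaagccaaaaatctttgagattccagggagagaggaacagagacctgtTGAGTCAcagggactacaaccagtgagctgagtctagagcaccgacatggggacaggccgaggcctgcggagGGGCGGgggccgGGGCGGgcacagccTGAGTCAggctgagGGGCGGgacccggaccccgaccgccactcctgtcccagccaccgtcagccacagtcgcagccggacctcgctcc
Vim, chr2:13574061-13574360, plus strand: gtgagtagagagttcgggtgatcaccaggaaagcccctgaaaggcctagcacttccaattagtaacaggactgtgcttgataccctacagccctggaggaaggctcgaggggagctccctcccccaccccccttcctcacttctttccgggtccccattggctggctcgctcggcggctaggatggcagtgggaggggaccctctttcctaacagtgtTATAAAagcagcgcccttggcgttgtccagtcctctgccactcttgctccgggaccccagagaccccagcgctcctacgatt

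Zfp42 held 1 ATTTGCAT match, at bases -186 to -179 from the start, a motif found in 1.74% of the 32851 promoters of this length in the table, and 2 GGGCGG matches. Klf4 held 4 GGGCGG matches, the first 2 sharing a base, and this motif was in 35.7% of the promoters. S100a11 held 2 TGANTCA matches, at -136 to -130 and -38 to -32, a motif in 7.81% of the promoters, and 3 GGGCGG matches. Vim held 1 TATAAA match at -32 to -27, and so did Anxa1 at the same bases, a motif in 13.6% of the promoters. The negative gene Ftl1 held 1 too, after the start at 18 to 23. ATTTGCAT had no match in the other genes of either sign whose promoters were matched. CATTGT, in 12.6% of the promoters, had no match in the 4 windows shown.

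Among transcription factors of the pluripotent state, Zfp42 (Rex1; Entrez gene 22702, chromosome 8), a zinc finger protein used as a mark of undifferentiated cells, had ratios as deposited of -3.91 and -2.74 where #4 (B6) was in Cy5 and of 1.74 and 3.01 where HM-1 was. The sign turned with the dye on every array. The direct difference was -2.85 ± 0.41 (SE, n = 4 arrays, adjusted p = 1.9e-04) and the indirect one -2.40 ± 0.35 (adjusted p = 3.4e-05). Sall1 (Entrez gene 58198, chromosome 8), a zinc finger partner of the pluripotency factors, had -1.68 and -1.74 with #4 (B6) in Cy5 and 1.62 and 2.09 with HM-1 in Cy5. Its difference was -1.78 ± 0.35 directly (adjusted p = 0.011) and -2.22 ± 0.34 indirectly. Klf4 (Entrez gene 16600, chromosome 4), a Krüppel-like factor induced by LIF and STAT3, had -0.71 and -1.03 with #4 (B6) in Cy5 and 0.87 and 0.67 with HM-1 in Cy5. Its values on the 4 arrays were close to mirror images, with a mean as deposited of -0.05. The differences were -0.82 ± 0.18 directly (adjusted p = 0.029) and -1.05 ± 0.14 indirectly (adjusted p = 4.6e-06).

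Dppa5a (Entrez gene 434423, on chromosome 9) codes for a KH-domain protein that binds RNA in ES and germ cells. It had -0.71 and -0.68 with #4 (B6) in Cy5 and 2.08 and 2.15 with HM-1 in Cy5. The sizes were unequal between the orientations, and besides its direct difference of -1.41 ± 0.20 the mean as deposited also passed (0.71 ± 0.20, adjusted p = 0.027). The indirect difference was -1.49 ± 0.16 (adjusted p = 2.8e-08). Lefty2 (Entrez gene 320202, on chromosome 1), which is secreted and blocks Nodal, had -1.32 and -1.73 with #4 (B6) in Cy5 and 0.80 and 1.30 with HM-1 in Cy5. The direct difference of -1.29 ± 0.25 (adjusted p = 5.7e-03) lay above the indirect one of -1.91 ± 0.19 (adjusted p = 3.7e-09), and the difference between them, 0.62 ± 0.31, did not pass. Lefty2 was the 1 member that passed among 24 tested genes of Nodal, Activin and BMP signalling, where 0.14% of all features passed as negative. The list had a median of 0.11, and the paralogue Lefty1 was at -0.24 ± 0.44.

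H4c8 (Entrez gene 69386, on chromosome 13), which codes for core histone H4, had -1.03 and -1.04 with #4 (B6) in Cy5 and 0.98 and 0.85 with HM-1 in Cy5. The orientations mirrored each other closely, with a direct difference of -0.98 ± 0.15 and an indirect one of -1.15 ± 0.11. Ftl1 (Entrez gene 14325, chromosome 7), the light chain of the iron store ferritin, had -0.77 and -0.83 with #4 (B6) in Cy5 and 1.32 and 0.96 with HM-1 in Cy5. Its differences were -0.97 ± 0.17 directly (adjusted p = 2.2e-03) and -0.85 ± 0.13 indirectly. Histone H4 genes, ferritin light chain and Dppa5a have near-identical copies in the genome that a cDNA probe may not tell apart. Among 10 tested histone genes 9 were negative in the direct difference, with a median of -0.20. H4c8 was the 1 that passed, where 0.14% of all features passed as negative. H3f3b, which codes for the replication-independent histone H3.3, was at -0.43 ± 0.21 directly and passed indirectly at -0.97.

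Among the positive genes Vim (Entrez gene 22352, chromosome 2), the intermediate filament protein of mesenchymal cells, had 1.35 and 1.05 with #4 (B6) in Cy5 and -0.74 and -1.02 with HM-1 in Cy5, as the mean of 2 probes that turned alike. The direct difference was 1.04 ± 0.21 (adjusted p = 0.015) and the indirect one 1.15 ± 0.17 (adjusted p = 2.8e-05). Anxa1 (Entrez gene 16952, chromosome 19), a phospholipid-binding annexin, had 0.969 and 1.003 with #4 (B6) in Cy5 and -1.32 and -1.37 with HM-1 in Cy5. Within each orientation these values lay less than 0.1 apart. The differences were 1.17 ± 0.25 directly (adjusted p = 0.020) and 1.28 ± 0.19 indirectly (adjusted p = 2.6e-05). S100a11 (Entrez gene 20195, chromosome 3), an EF-hand calcium-binding protein, had 2.07 and 2.01 with #4 (B6) in Cy5 and -0.19 and -0.27 with HM-1 in Cy5. The turning part, 1.14 ± 0.18, and the part that did not turn, a mean as deposited of 0.90 ± 0.17, both passed. The indirect difference was 1.30 ± 0.13 (adjusted p = 3.7e-09).

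Penk (Entrez gene 18619, chromosome 4), the precursor of the enkephalin peptides, had 2.49 and 2.47 with #4 (B6) in Cy5 and -1.20 and -1.41 with HM-1 in Cy5. It had the largest direct difference among the genes called in both that were positive, 1.89 ± 0.29 (adjusted p = 2.9e-04), and an indirect one of 2.09 ± 0.31. Emb (Entrez gene 13723, chromosome 13), embigin, a membrane glycoprotein of the immunoglobulin family, had 1.29 and 1.34 with #4 (B6) in Cy5 and -1.76 and -1.93 with HM-1 in Cy5, and its 2 probes turned alike. Its differences were 1.58 ± 0.35 directly (adjusted p = 0.029) and 1.23 ± 0.29 indirectly (adjusted p = 0.022).

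Taken apart by the third line, the indirect difference has 3 short paths, each from the arrays that set both #4 (B6) and HM-1 against the same line. These values were chosen after the data were seen. H4c8 was at -1.09 through B6NT, -1.23 through B6PGA and -0.99 through ZFCUMNT, and Dppa5a at -1.63, -1.37 and -1.84 in that order. Vim was at 1.14, 1.10 and 1.29, and S100a11 at 1.15, 1.48 and 1.41. For all 12 genes the 3 paths had the sign of the direct difference. These genes were chosen for passing in the indirect difference, which uses the arrays of the paths. The choice favours a shared sign, which is therefore no separate support. The paths lay further apart for Penk (1.27, 3.90 and 1.71) and Sall1 (-1.63, -3.61 and -1.27), where the path through B6PGA was the largest.

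**Figure D4:**
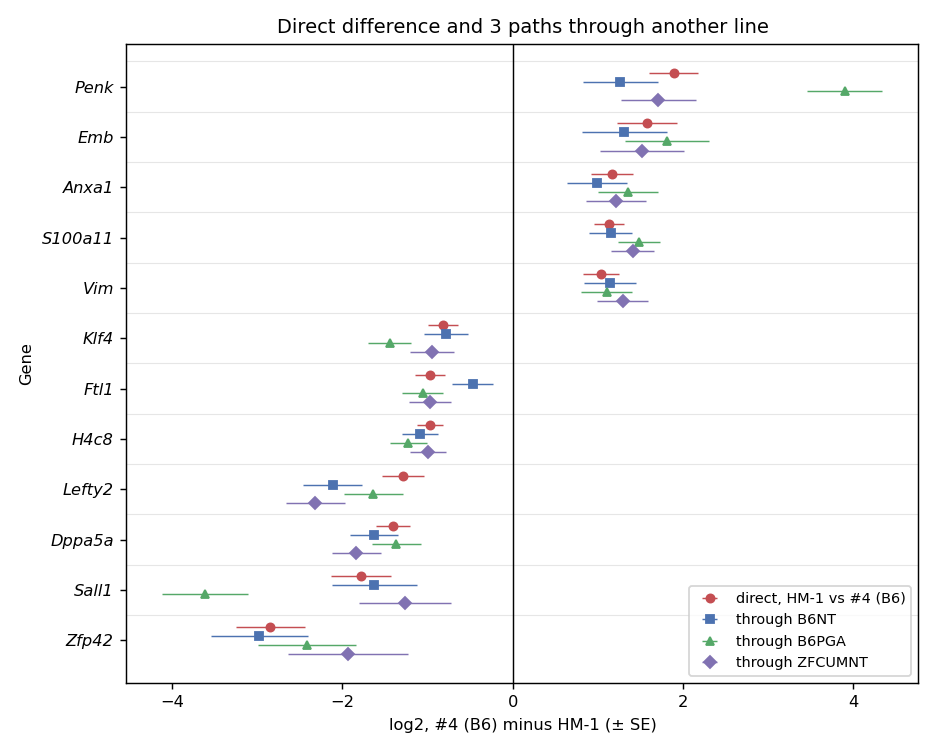
Direct difference and the 3 paths through B6NT, B6PGA and ZFCUMNT for the 12 genes called in both differences (log2, #4 (B6) minus HM-1, horizontal axis; bars are 1 SE). All 4 values of each gene lie on 1 side of 0, which the choice of genes favours. The path through B6PGA stands away from the others for Penk at 3.90 and Sall1 at -3.61.

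The remaining 5 named genes passed in the direct difference and not in the indirect one. Kbtbd8, an adaptor of a ubiquitin ligase, had 2.73 and 2.94 with #4 (B6) in Cy5 and -2.02 and -1.90 with HM-1 in Cy5. The direct difference of 2.40 ± 0.54 (adjusted p = 0.036) stood beside an indirect one of -0.06 ± 0.45. Rasgrp1, an activator of Ras, had 1.24 and 0.96 with #4 (B6) in Cy5 and -2.51 and -1.70 with HM-1 in Cy5. It was at 1.60 ± 0.36 directly and at 0.16 ± 0.27 indirectly. Cd5, a receptor of lymphocytes, had 1.76 and 1.84 with #4 (B6) in Cy5 and -1.34 and -1.17 with HM-1 in Cy5. It was at 1.53 ± 0.26 directly (adjusted p = 1.3e-03) and at 0.96 ± 0.25 indirectly (adjusted p = 0.053), just outside the threshold. Gria4, a subunit of AMPA glutamate receptors, had -0.27 and -0.57 with #4 (B6) in Cy5 and 2.33 and 2.66 with HM-1 in Cy5. It was at -1.46 ± 0.32 directly (adjusted p = 0.031) and at -0.51 ± 0.34 indirectly, and its mean as deposited passed too (1.04 ± 0.32). Rrs1, a factor in ribosome assembly, was measured on 3 arrays, with -2.87 and -7.01 with #4 (B6) in Cy5 and 0.47 with HM-1 in Cy5. It was at -3.37 ± 0.58 directly (adjusted p = 1.7e-03) and at -0.13 ± 0.28 indirectly. Without array 2 its direct value was -1.67 and lost the call, and with unequal numbers of arrays per orientation the part that does not turn is not balanced out. The lowest value of any probe on array 2 was -9.01, so the -7.01 of Rrs1 lay toward the low end of that array. Whether it is a reading near a floor was not tested. For Kbtbd8, Rasgrp1, Cd5, Gria4 and Rrs1 the direct minus the indirect difference did not pass (lowest adjusted p = 0.185).

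A pair of further genes passed with turned signs that differed between arrays, and were chosen after their values were seen. Ago2, the slicer of RNA interference, had -8.39 and -3.13 with #4 (B6) in Cy5 and 1.21 and -0.85 with HM-1 in Cy5, so 1 array went against the others. Its direct difference was -2.97 ± 0.62 and its mean as deposited -2.79 ± 0.45. The lowest value of any probe on array 1 was -9.97, so the -8.39 of Ago2 lay toward the low end of that array. Gna13, a G protein subunit, was at 1.17 ± 0.27 from 2 probes that disagreed. The first probe read 1.48 and 1.84 with #4 (B6) in Cy5 and 1.93 and 1.71 with HM-1 in Cy5, and the second read 1.92 and 1.76 with #4 (B6) in Cy5 and -4.42 and -1.60 with HM-1 in Cy5.

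Across 36 listed pluripotency factors, 24 were on the array and 23 were tested. In the direct difference 16 were negative and 7 positive, with a median of -0.24 against -0.03 over all features, and 4 passed, all negative (Zfp42, Sall1, Dppa5a and Klf4), where 0.14% of all features passed as negative. Turned medians of the list on arrays 1 to 4 were -0.29, -0.25, -0.29 and -0.36. Turned values kept 1 sign on all arrays for 11 of the 22 members measured on all 4, against 8.93% of all such features, and as deposited for 3, against 49.6%. As deposited, 12 members had a negative and 11 a positive mean, with a median of -0.01. In the indirect difference 19 were negative and 4 positive, with a median of -0.42, and 5 passed, all negative, where 0.366% of all features did; the further one was Rif1 (-0.93), a factor in replication timing and telomere protection.

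Of the core, Pou5f1 and Sox2 did not pass, and no value is given here for Nanog. Sall4, Trim28 and Utf1, listed outside that core, did not pass either. Pou5f1, which codes for Oct4, had 0.02 and 0.29 with #4 (B6) in Cy5 and 0.00 and 0.17 with HM-1 in Cy5. Its direct difference was 0.04 ± 0.22 and its indirect one -0.16 ± 0.17. Sox2 was at 0.62 ± 0.45 directly and -0.62 ± 0.34 indirectly, with opposite signs, and Sall4 at 0.11 ± 0.22 directly and close to 0 indirectly. Trim28, a corepressor that silences retroelements, was at 0.07 ± 0.23, and Utf1 at 0.14 ± 0.42. A p that misses the threshold does not show equal levels.

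Among naive factors that did not pass, several had values beyond the middle 90% of features. Esrrb, an orphan nuclear receptor, had -1.58 and -2.51 with #4 (B6) in Cy5 and 0.69 and 0.61 with HM-1 in Cy5, for a direct difference of -1.35 ± 0.47 (adjusted p = 0.584). Nr0b1 (Dax1), a partner of Oct4, had -1.54 and -1.61 with #4 (B6) in Cy5 and 0.47 and 1.14 with HM-1 in Cy5, for -1.19 ± 0.33 (adjusted p = 0.186). Klf5 had -4.55 and -0.53 with #4 (B6) in Cy5 and 0.25 and 0.10 with HM-1 in Cy5, so that array 1 set most of its direct value of -1.36 ± 0.36 (adjusted p = 0.156). Dppa3 (Stella), which protects the maternal genome from demethylation, went the other way. It had 0.93 and 1.09 with #4 (B6) in Cy5 and -1.02 and -1.48 with HM-1 in Cy5, for 1.13 ± 0.35 directly (adjusted p = 0.363) and 0.72 ± 0.27 indirectly.

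LIF and STAT3 signalling had 14 tested genes, 12 negative and 2 positive in the direct difference, with a median of -0.44. Klf4 was the 1 that passed, where 0.14% of all features passed as negative. The list's turned medians on arrays 1 to 4 were -0.33, 0.09, -0.87 and -0.51, so array 2 went against the others. In the indirect difference 7 were negative and 7 positive, with a median close to 0. Stat3 itself, the transcription factor of the pathway, was at 0.91 ± 0.30 directly (adjusted p = 0.474) and 0.05 indirectly. Bcl3, a STAT3 target, was at -1.14 ± 0.37 directly and 0.49 indirectly.

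Across 47 listed markers of fibroblasts and feeder cells, 39 were on the array and 38 were tested. In the direct difference 30 were positive and 8 negative, with a median of 0.48 against -0.03 over all features, and 2 passed, both positive (Vim and Anxa1), where 0.0792% of all features passed as positive. Turned medians on arrays 1 to 4 were 0.73, 0.68, 0.12 and 0.35, so the list stood higher on the arrays with #4 (B6) in Cy5. Turned values kept 1 sign on all 4 arrays for 15 of the 38 members and as deposited for 15, against 8.93% and 49.6% of all features measured on 4 arrays. As deposited, 28 members had a positive and 10 a negative mean, with a median of 0.16. In the indirect difference 30 were again positive and 8 negative, with a median of 0.35, and 6 passed, all positive, where 0.354% of all features did; the further ones were Sparc, Timp3, Igfbp3 and Col1a1.

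Markers that passed indirectly alone had direct values of the same sign. Sparc, a matrix glycoprotein that binds collagen, had 1.22 and 1.08 with #4 (B6) in Cy5 and -0.15 and -1.68 with HM-1 in Cy5, for 1.03 ± 0.27 directly (adjusted p = 0.136) and 1.12 ± 0.21 indirectly. Timp3, an inhibitor of matrix metalloproteinases, was at 0.76 ± 0.19 (adjusted p = 0.089) and 0.92 ± 0.15. Igfbp3, a carrier of insulin-like growth factors, was at 0.87 ± 0.33 and 1.40 ± 0.26. Fibrillar collagens lay between these and 0, with Col1a1 at 0.49 ± 0.24 directly and 0.76 ± 0.19 indirectly, Col1a2 at 0.53 ± 0.27 and 0.73 ± 0.23, and Col3a1 at 0.55 ± 0.25 and 0.63 ± 0.20. Col1a1 had 1.01 and 1.19 with #4 (B6) in Cy5 and -0.14 and 0.38 with HM-1 in Cy5, so its turned sign was not the same on all arrays. Other markers lay near 0 directly, among them Lox (-0.01 ± 0.20), which cross-links collagen, and Bgn (-0.03 ± 0.26). Postn (-0.01 ± 0.79), a matricellular protein, had too wide an SE to be placed near 0. Of the 38 tested markers, 8 were negative directly and 8 indirectly. Most of the negative values are not given here, so those named do not describe that side of the list. The medians of the fibroblast markers and of the pluripotency factors had opposite signs on each of the 4 arrays, with members of each list on either side of 0, and the part of feeder or differentiated cells in the other differences was not tested. In bulk RNA fewer cells of a type and less RNA per cell cannot be told apart.

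**Figure D5:**
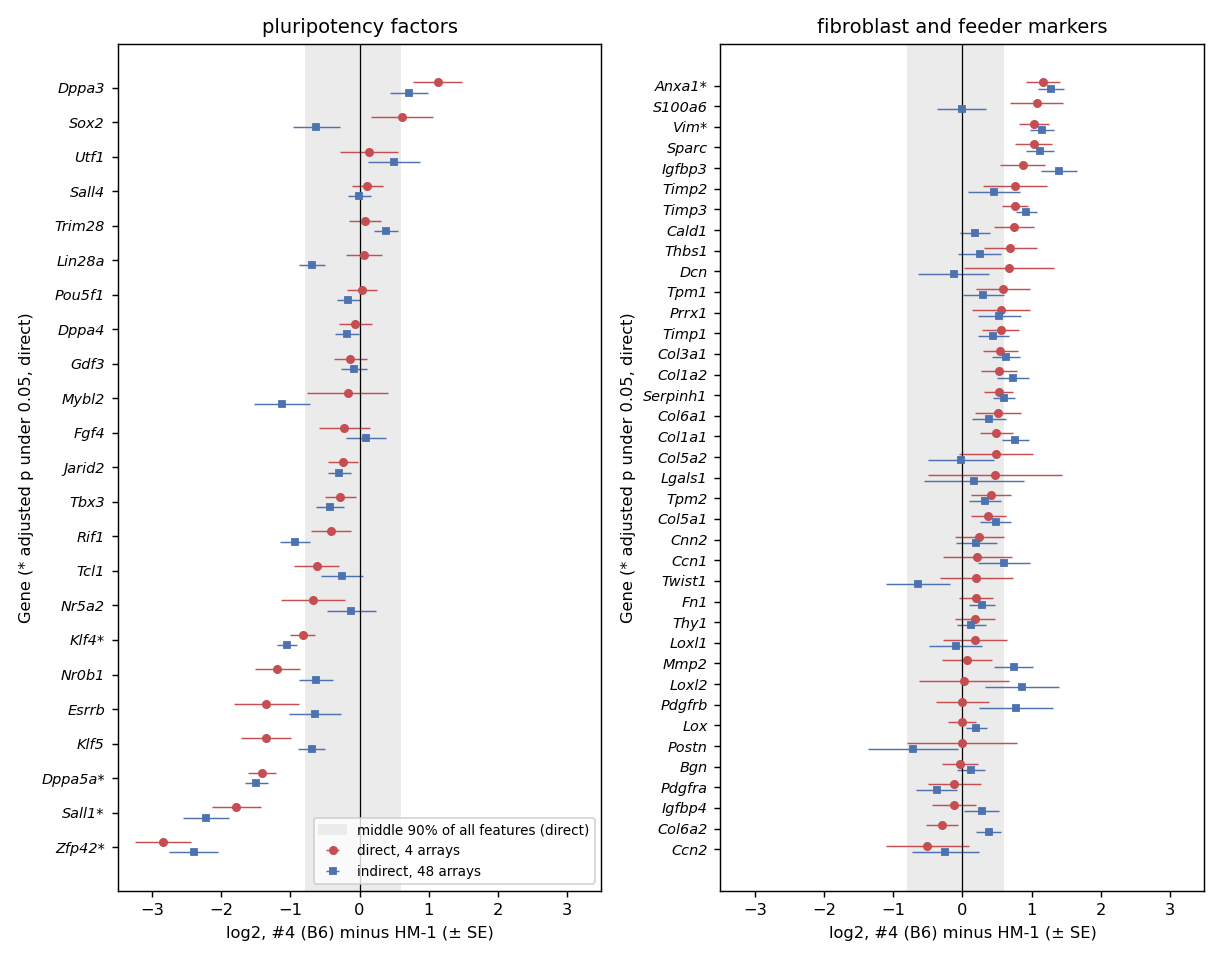
Direct (circles, 4 arrays) and indirect (squares, 48 arrays) differences, #4 (B6) minus HM-1 in log2 with bars of 1 SE, of the tested pluripotency factors (left) and fibroblast and feeder markers (right); an asterisk marks an adjusted p under 0.05 in the direct difference and the grey band the middle 90% of all features. On the left 16 of 23 direct values lie below 0, and on the right 30 of 38 lie above 0.

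With all 52 arrays joined by line, a fit chosen after the data were seen that includes the 4 arrays, 130 of 16410 features passed (0.792%), 79 positive (0.481%) and 51 negative (0.311%), among them 25 of the 36. Of the pluripotency factors 8 passed, and Esrrb was not among them. Zfp42, Sall1, Dppa5a, Klf4, Klf5 (-0.94), Nr0b1 (-0.84) and Rif1 (-0.74) were negative, and Dppa3 was positive (0.87, adjusted p = 0.028). Of the fibroblast markers 7 passed, all positive, the 6 above and Serpinh1 (0.57), a collagen chaperone.

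The largest indirect differences were not all seen directly. Wnt11, a ligand of non-canonical WNT signalling, was at 1.80 ± 0.35 indirectly (adjusted p = 3.7e-03) and at -0.26 ± 0.23 directly, with ratios of 0.28 and 0.99 with #4 (B6) in Cy5 and of 1.35 and 0.97 with HM-1 in Cy5. All 4 were positive as deposited, and the mean as deposited passed (0.90 ± 0.22). Its 3 paths were 2.53 through B6NT, 4.63 through B6PGA and -0.07 through ZFCUMNT, so the indirect value did not rest on all lines alike. Dhcr7, the last enzyme of one branch of cholesterol synthesis, was at -2.28 ± 0.38 indirectly (adjusted p = 2.2e-04) and -0.62 ± 0.39 directly. Peg3, a paternally expressed zinc finger gene, was at 1.5 ± 0.32 indirectly (adjusted p = 8.4e-03) and 0.90 ± 0.34 directly. The other genes among the 5 largest each way were Rangrf (1.61 indirectly, 0.03 directly), Ccny (1.61 and -0.12) and the sodium-potassium-chloride cotransporter gene Slc12a2 (-1.83 and 0.17). For none of these 6 did the direct minus the indirect difference pass.

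Other lists had few or no members called directly, where 0.219% of all features passed. At that share most lists of these sizes would hold no call, so having none does not set a list apart. Rasgrp1 was the 1 member that passed of 16 genes of FGF and ERK signalling (median -0.11), Penk of 22 neural markers (0.06), Rrs1 of 37 ribosome assembly factors (0.10) and Lefty2 of 5 markers of the primed epiblast (-0.01). Markers of primitive and visceral endoderm (23 tested, median close to 0), trophectoderm (13, 0.015) and mesoderm and heart (23, 0.11) had no member called. Nor did 21 genes of WNT signalling, 25 imprinted genes, 40 DNA methylation and silencing factors, 12 cholesterol synthesis enzymes, 16 glycolysis genes, 47 oxidative phosphorylation genes, 40 cell cycle genes, 27 heat shock and unfolded protein genes, 21 interferon and antigen presentation genes or 58 cytosolic ribosomal protein genes, with medians from -0.08 to 0.16. Ribosomal protein genes showed 42 negative and 16 positive values, against 8984 and 7424 over all features. In the same order the list split 35 and 23 indirectly, and 24 and 34 in the mean as deposited. Of the sex chromosome list 5 genes were tested, too few to describe.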

How the data were processed

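The deposited table holds log2 ratios of Cy5 and Cy3 signal per probe; log2 is a reading of the values, since the authors state neither base nor numerator, and the scanner, background correction, normalization and genome build are not given in the sources used here. Per the labels, 20 microgram of total RNA per line were labelled; the protocol text also speaks of organs and a pooled reference, and the channel names were used instead. Values above 12, constant within each array, were treated as not measured. Symbols came from the platform annotation (12771 of 20794 probes, all equal to the RefSeq symbol of their Entrez gene).

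One joint model of all 52 arrays was fitted (limma 3.58.1, R 4.3.3, lmFit and eBayes), with 13 comparison coefficients and 1 dye term per feature, Benjamini-Hochberg adjustment and a threshold of 0.05. A feature needed at least 3 of the 4 arrays, in both orientations, and for the indirect difference, fitted by line, at least 24 of 48. The scripts were tested on simulated data. Arrays with the same number share only that number and an orientation, so numbers were not used as pairs. Genes named were those passing with 1 turned sign on every measured array, at most 12 each way, all list members passing, any pluripotency or fibroblast list member, and the 5 largest each way for the indirect difference and the mean as deposited. The members and the 23 gene lists (805 genes, 553 on the array) were chosen with earlier results of these data known. Figures and motif matches used Python 3.11.15. The number of arrays limits the precision.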

Additional observations from a re-analysis of the deposited data

How the results depend on the processing

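The direct count of 36 was 34 to 50, with 12 or more positive and 21 or more negative, when top values were kept, medians subtracted, spreads equalised, probes tested singly, the filter on arrays changed or trend and robust options used. It was 113 (4 positive, 109 negative) with the 4 ratios left as deposited, 0 with the 4 arrays fitted alone, 21 without a dye term and 120 (66 positive, 54 negative) with array weights. Leaving out 1 array gave 14 to 49. Of settings chosen after the data were seen, an own dye term for the comparison gave 62 (15 positive, 47 negative), own dye terms for each comparison 80, an own dye term without array 1, 2, 3 or 4 gave 85, 92, 64 and 59, and all arrays joined by line gave 130. With array number as a replicate block, on numbers that do not pair samples, the count stayed at 36 (13 positive, 23 negative), all 36 shared. The indirect count of 118 (58 positive, 60 negative) was 129 (74 and 55) with medians subtracted, 213 (133 and 80) with equal spreads, 198 (112 and 86) with array weights, 24 through B6NT alone and 25 through ZFCUMNT alone. The direct minus indirect count of 0 was 53 with ratios as deposited and 2 with array weights. The count of 913 for the mean as deposited was 159 (6 positive, 153 negative), 158 of them shared, after the dye term of the other arrays was subtracted.

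With the 4 ratios left as deposited in the joint fit, its dye term kept, signs turned for Kbtbd8 (-0.15), Rasgrp1 (-0.73), Emb (-0.25), Anxa1 (-0.14), Gria4 (0.32) and Dppa5a (0.24). These values are not the means as deposited, which were 0.44 for Kbtbd8 and 0.71 for Dppa5a. Signs also turned with probes tested singly for Gna13 (-0.081), and through ZFCUMNT alone for Wnt11 (-0.066) and Ccny (-0.56). The causes of these changes were not tested. Where an array was left out, the number of arrays fell and the dye orientations became unequal at once. Signal over background is unknown, since the table holds no intensities.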

Other observations

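With all 52 arrays joined by line, some genes passed that the 4 arrays alone placed on the same side of 0 without a call. Ifitm3, an interferon-induced membrane protein, was at 1.02 joined (adjusted p under the threshold), 0.42 directly and 1.38 indirectly. Irf1, a transcription factor of the interferon response, was at 0.96, 0.68 and 1.13 in the same order. Bex1, a gene expressed in neurons, was at 0.81, 0.94 and 0.74. Hmgcs1, which makes HMG-CoA for cholesterol synthesis, was positive at 0.80, 1.04 and 0.66, while Dhcr7, a late enzyme of the same pathway, was negative at -1.67, -0.62 and -2.28. The mitochondrial genes Cox7a2 (0.90) and Atp5g3 (0.58) were positive in the joined fit and the ribosomal protein gene Rps24 (-0.63) was negative, each among lists with few calls. The joined values include the 4 arrays and are no independent repeat of the direct difference.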
